A study of Homo sapiens with 4 samples.

Results

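The genes described here are 9 homeobox genes outside the HOX clusters, BARX1, UNCX, MEIS1, MEIS2, PBX3, IRX3, IRX5, MSX1 and MSX2, of the 27011 genes in the count table. They were proposed by symbol with results of the same comparison already known, so their own values are a description and carry no test. RNA-Seq libraries came from HEK293T WT and Helz-null cells, with 2 replicates of each that the study describes as biological, none of them treated and all harvested 24 h after plating. HEK293T cells are a widely used line of human embryonic kidney origin. The Helz-null line was made from it with Cas9 and a guide against exon 8 of the helz gene, and a small deletion shifts the reading frame. One edited line was sequenced, so the loss of HELZ and the history of that line cannot be told apart.

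Homeobox genes encode transcription factors that bind DNA through the homeodomain, a fold of helices whose last helix lies in the major groove. They are best known for setting position and cell identity in the embryo. MEIS, PBX and IRX proteins belong to the TALE class, in which a loop of the homeodomain is extended, and MEIS and PBX proteins bind DNA together with HOX proteins. BARX1 and the MSX genes belong to the ANTP class and UNCX to the PRD class. BARX1 acts in stomach and craniofacial mesenchyme, and UNCX in the axial skeleton and in neurons. IRX3 and IRX5 pattern limb, heart and neural tissue, and the MSX genes are textbook targets of BMP signalling in limb, tooth and skull.

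The part of the coding sequence that makes these genes a family is printed to show how alike they are, because reads from near-identical stretches could be assigned to the wrong gene. Each canonical coding sequence (GENCODE, GRCh37, the same assembly as hg19) was searched in frame for the codon TGG, then TTC, TTT, TAC or TAT, any codon, AAC or AAT, any codon and an arginine codon, which lie in the DNA-recognition helix. Of 10111 tested genes with a coding sequence, 1.07% hold this run of codons, and of the 78 tested non-HOX homeobox genes listed here 83.3% do. The 30 bases from its start are given 5′ to 3′ on the coding strand, with the codons that were searched for in capitals.
BARX1: TGGTACcagAATcggAGGatgaagtggaag
UNCX: TGGTTCcaaAACcgcCGGgccaagtggagg
MSX1: TGGTTCcagAACcgcCGCgccaaggcaaag
MSX2: TGGTTCcagAACcgaAGGgccaaggcgaaa
MEIS1: TGGTTTattAATgccCGGagaagaatagtg
MEIS2: TGGTTTattAATgccAGAagaagaatagta
PBX3: TGGTTTggcAACaaaCGAatcaggtacaag
IRX3: TGGTTCgccAACgcgCGCcggcgcctcaag
IRX5: TGGTTCgccAACgcgCGCcggcgcctcaag

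The IRX3 and IRX5 runs were the same at 30 of 30 bases, and the homeoboxes of these genes, 189 bases long, were 89.9% identical. MEIS1 and MEIS2 differed at 3 of the 30 bases and were 83.6% identical over the homeobox, and MSX1 and MSX2 differed at 5 bases and were 82.2% identical over 180 bases. BARX1 and UNCX, by contrast, were 55.0% identical over the homeobox. How the authors' counting treated reads that match more than 1 place is not given in the sources used here, so the counts of IRX3 and IRX5 are the least certain of the 9 in this respect. Outside the homeobox this likeness was not examined.

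All positions are on GRCh37. The printed run of BARX1 lies on the minus strand at chr9:96715017-96715046, in exon 3 of 4, and that of UNCX on the plus strand at chr7:1275471-1275500, in exon 3 of 3. The run of IRX3 (minus strand, chr16:54319235-54319264) is in exon 2 of 4 and that of IRX5 (plus strand, chr16:54966647-54966676) in exon 2 of 3. The run of PBX3 (plus strand, chr9:128722972-128723001) is in exon 6 of 9. Those of MSX1 (plus strand, chr4:4864613-4864642) and MSX2 (plus strand, chr5:174156347-174156376) are in exon 2 of 2. In MEIS1 and MEIS2 the run crosses from exon 9 to exon 10, with 2 bases in the first and 28 in the second, at chr2:66794585-66794612 on the plus strand and chr15:37188860-37188887 on the minus strand. All runs are within coding sequence.

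Library totals ranged from 41745401 to 70464140 counts. The targeted gene HELZ was lower in both Helz-null libraries, at 37 and 37.9 CPM (counts scaled to library size, TMM-normalized), than in the WT libraries, at 99.8 and 103.9 CPM (log2FC -1.44 with a standard error of 0.042; adjusted p = 2.13e-27 in the edgeR fit). All 5 genes chosen to mark HEK293T cells were present in each library, but not all at like levels in both cell types. VIM had an FPKM (a level per length) of 446.7 to 485.7, NEFL one of 26.4 to 28.1 and PAX2 one of 1.18 to 1.65. NEFM went from 64.2 and 61.5 FPKM in WT to 119.7 and 118.5 in Helz-null cells, and INA from 22.2 and 20.5 to 10.1 and 10.9. The part of these shifts in the results below was not tested. None of 12 markers of 5 other cell types reached an FPKM of 1 in any library, and their summed FPKM was 0.808 and 1.12 in WT and 0.915 and 0.905 in Helz-null cells. Of the 10978 genes tested, which are those of the authors' deposited comparison, 29.4% were called at an FDR under 0.005, 13.9% up-regulated and 15.5% down-regulated. Up-regulated genes were 47.3% of these calls, and 61.5% when libraries were scaled by their total only, which raised the median log2FC of all tested genes from -0.001 to 0.032.

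All 9 homeobox genes were among the genes tested. Of them 4 were called, 2 up-regulated (BARX1 and MSX1) and 2 down-regulated (UNCX and MEIS2), beside the 29.4% of all tested genes given above. The groups did not overlap for 7 of the 9 genes, 5 higher and 2 lower in Helz-null cells, beside 70.6% of all tested genes, 34.9% higher and 35.7% lower. Since the genes were proposed from this comparison, nothing is read from these counts. The median log2FC of the 9 was 0.10 and their median absolute log2FC 0.20, against -0.0009 and 0.11 over all tested genes. BARX1 and UNCX were the only members that changed more than 2-fold, and they changed in opposite directions. Their changes were also the largest in size among the 78 tested non-HOX homeobox genes. As the genes were proposed from this comparison, nothing is read from this rank or from the medians either. The rank leaves out homeobox genes that were not tested. Among these are OTX2 (0 counts in both Helz-null libraries) and LHX8 (log2FC -2.25 in a wider fit), described below.

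**Figure D1:**
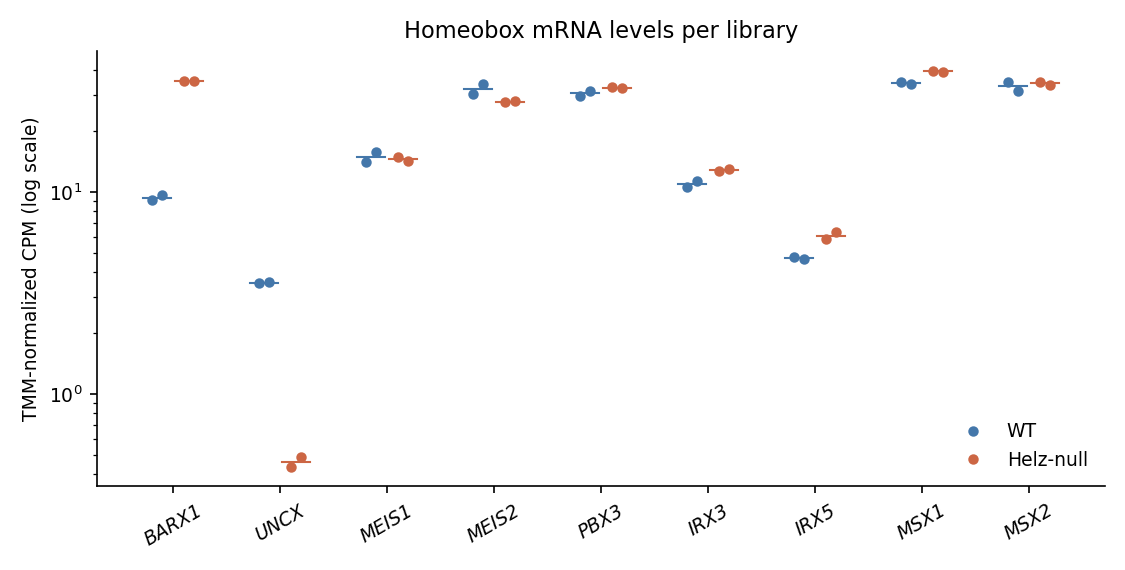
TMM-normalized CPM (log scale) of the 9 homeobox genes in 2 WT and 2 Helz-null libraries; each point is 1 library and each line the mean of a group. BARX1 rises from 9.36 to 35.3 CPM and UNCX falls from 3.56 to 0.462 CPM on average, while the log2FC of the other 7 genes lies between -0.20 and 0.37.

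BARX1 (chromosome 9, 96713909 to 96717637, minus strand) was present at 9.13 and 9.59 CPM in the WT libraries and at 35.3 and 35.4 CPM in the Helz-null libraries. Both Helz-null values lay far above both WT values, and the libraries of each cell type differed little from each other. The WT mean of 9.36 ± 0.325 CPM stood against a Helz-null mean of 35.3 ± 0.11 CPM (SD, n = 2 for both), a 3.79-fold difference with a log2FC of 1.92 (standard error 0.071). The values rest on 573 and 393 counts in WT and on 1457 and 2469 counts in Helz-null cells. Counted from the highest log2FC, BARX1 was number 8 of the 10978 tested genes. In these bulk libraries, more cells that express a gene and more mRNA per cell cannot be told apart.

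UNCX (chromosome 7, 1272508 to 1276962, plus strand) went the other way. It was present at 3.55 and 3.56 CPM in the WT libraries and at 0.436 and 0.488 CPM in the Helz-null libraries. The groups were far apart, and the 2 WT values were nearly the same. With 2 libraries and few counts, this closeness says little about the true spread in WT cells. The mean fell from 3.56 ± 0.00681 CPM to 0.462 ± 0.0368 CPM (SD, n = 2 for both). This is 7.57-fold lower, and the log2FC was -2.92 (standard error 0.24). The Helz-null values rest on 18 and 34 counts against 223 and 146 counts in WT, so the size of the fold is set by few reads, although both counts are above the floor of 3 counts. Counted from the lowest log2FC, UNCX was number 5.

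The change of BARX1 was not shared by its paralogue. BARX2, a gene of muscle and epithelial differentiation that was not among the genes proposed, was down-regulated, from 21.1 and 18.6 CPM in WT to 15.1 and 16.6 CPM in Helz-null cells (log2FC -0.33 with a standard error of 0.076; edgeR adjusted p = 5.15e-04). The groups lay close together but did not overlap. This call was lost with DESeq2 (log2FC -0.33), without Helz-null replicate 1 (-0.27) and without WT replicate 1 (-0.23). Per length, the level of BARX1 was 0.514 and 0.613 times that of BARX2 in the WT libraries and 2.78 and 2.55 times in the Helz-null libraries, so that the order of the pair was turned around.

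Among the TALE genes, the MEIS genes differed among themselves. MEIS1 (chromosome 2, 66660584 to 66801001, plus strand) had 14 and 15.8 CPM in WT and 14.9 and 14.2 CPM in Helz-null cells. The groups overlapped, and the log2FC was -0.03 (standard error 0.082). MEIS2 (chromosome 15, 37181405 to 37393500, minus strand) had 30.6 and 34.0 CPM in WT and 27.8 and 28.0 CPM in Helz-null cells. Its groups did not overlap. The 2 WT libraries stood further from each other than the nearer of them did from the Helz-null libraries, and the log2FC was -0.20 (standard error 0.06). Without WT replicate 1 the log2FC of MEIS2 was -0.29 and without WT replicate 2 it was -0.13. MEIS2 was called without WT replicate 1, but not without any other 1 library, and not with DESeq2, RLE size factors, filterByExpr or library totals only. MEIS3, not among the genes proposed, was up-regulated from 15 and 15.5 CPM to 21.1 and 23.5 CPM (log2FC 0.56 with a standard error of 0.073; edgeR adjusted p = 4.80e-08).

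PBX3 (chromosome 9, 128509624 to 128729656, plus strand), like other PBX proteins a partner of HOX and MEIS proteins, had 29.8 and 31.6 CPM in WT and 33.0 and 32.5 CPM in Helz-null cells. Its groups did not overlap but lay close together (log2FC 0.10, standard error 0.057), and it was not called. PBX2, at 100.8 ± 0.767 CPM in WT, was not called (log2FC 0.04, adjusted p = 0.35), and the interval of its log2FC from -0.03 to 0.11 holds changes of both signs. Of the remaining relatives, PKNOX1 was down-regulated (log2FC -0.33, adjusted p = 2.42e-06), while PKNOX2 (-0.10, adjusted p = 0.32), TGIF1 (-0.04, adjusted p = 0.77) and TGIF2 (-0.02, adjusted p = 0.69) were not called. PKNOX proteins also bind PBX proteins, and TGIF proteins are repressors in TGF-beta signalling. PBX4 and MKX were counted in every library but were not among the genes tested (log2FC 0.33 and 0.01 in a fit over all genes with at least 1 count, neither called).

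IRX3 (chromosome 16, 54317216 to 54320699, minus strand) had 10.6 and 11.3 CPM in WT and 12.6 and 12.9 CPM in Helz-null cells. IRX5 (chromosome 16, 54964777 to 54968397, plus strand), its neighbour in the same IRX cluster, had 4.76 and 4.63 CPM in WT and 5.83 and 6.31 CPM in Helz-null cells. In both genes each Helz-null value was above each WT value, with log2FC values of 0.22 (standard error 0.088) and 0.37 (standard error 0.13), and neither was called. The IRX3 level per length was 1.99 and 2.19 times that of IRX5 in WT and 1.93 and 1.83 times in Helz-null cells. Of the other IRX genes, IRX1 and IRX2 had 0 counts in every library. IRX4 had 4 to 21 counts and IRX6, the third gene of the cluster on chromosome 16, had 55 to 86 counts per library, and neither was among the genes tested.

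**Figure D2:**
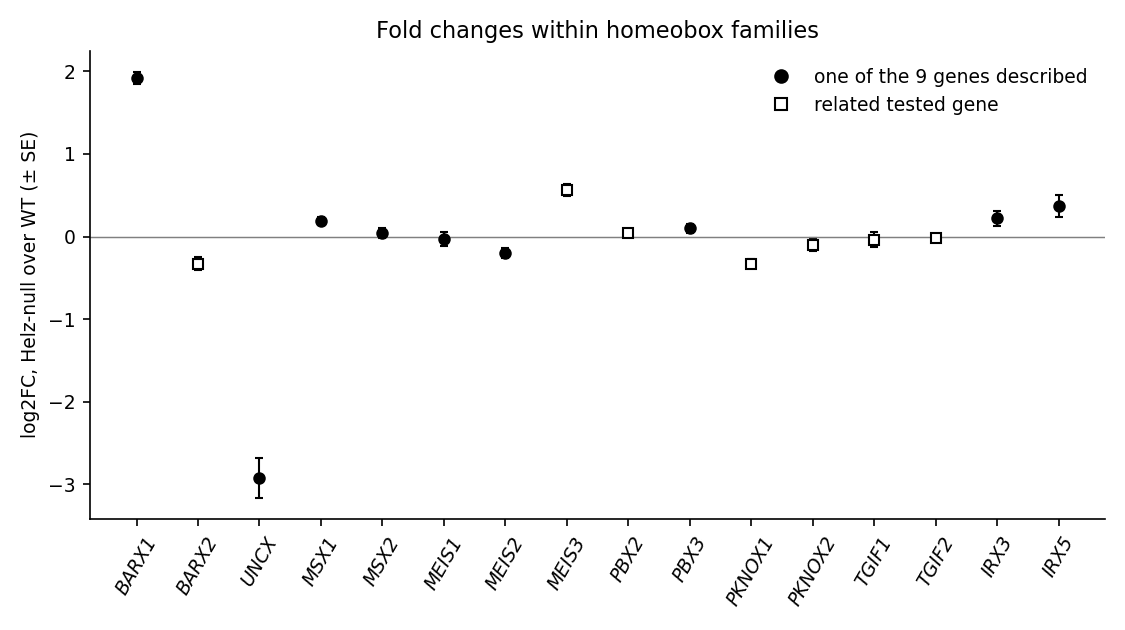
log2FC of Helz-null over WT (points) with standard errors (bars) for the 9 homeobox genes (filled circles) and tested relatives (open squares), from edgeR. BARX1 (1.92) and UNCX (-2.92) stand apart, and BARX2, MEIS3 and PKNOX1 are the relatives shown that were called.

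MSX1 (chromosome 4, 4861392 to 4865663, plus strand) had 34.8 and 34.2 CPM in WT and 39.8 and 39.0 CPM in Helz-null cells. The groups did not overlap and the libraries of each group were close, with a log2FC of 0.19 (standard error 0.052). MSX1 was called, but not with DESeq2 or filterByExpr and not without any 1 of the 4 libraries, where its log2FC was 0.17 to 0.21. MSX2 (chromosome 5, 174151585 to 174157899, plus strand) had 34.9 and 31.6 CPM in WT and 35.1 and 33.6 CPM in Helz-null cells. Its groups overlapped, and the log2FC was 0.04 (standard error 0.057). The MSX1 level per length was 1.14 and 1.23 times that of MSX2 in WT and 1.29 and 1.32 times in Helz-null cells.

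Other genes that respond to BMP signalling were counted from a list of 12, of which 10 were tested. Calls were made for 4 of these, 2 in each direction, beside 29.4% of all tested genes, and the median log2FC over all 10 was 0.00. ID4 (log2FC 0.53, adjusted p = 2.51e-15) and NOG, a secreted BMP inhibitor (log2FC 0.71, adjusted p = 2.05e-05), were higher in Helz-null cells. ID3 (log2FC -0.18, adjusted p = 2.59e-04) and the inhibitory SMAD6 (log2FC -0.39, adjusted p = 1.41e-04) were lower, all from edgeR's test.

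Levels can be compared between genes only per length, and FPKM was computed for this from the deposited gene widths and library totals. In WT cells MSX1 had the highest level of the 9 (17.2 FPKM), followed by MSX2 (14.6), PBX3 (9.57), MEIS2 (7.07), BARX1 (6.11), IRX3 (4.6), MEIS1 (4.53), IRX5 (2.2) and UNCX (2.15 FPKM). IRX3 and MEIS1 overlapped between libraries in WT cells and the other neighbours in this order did not, although IRX5, at 2.18 to 2.23 FPKM, and UNCX, at 2.15 to 2.16 FPKM, lay next to each other. In Helz-null cells BARX1 moved from the fifth place to the first, at 23.6 FPKM, above MSX1 at 20.1 FPKM. By group means the order of the other 8 genes was the same in both cell types, and UNCX was last in both, at 0.286 FPKM in Helz-null cells. The WT order of IRX3 and MEIS1, and that of IRX5 and UNCX, is not settled by 2 libraries. BARX1 had 2.77 and 2.9 times the FPKM of UNCX in the WT libraries and 87.2 and 78.2 times in the Helz-null libraries.

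**Figure D3:**
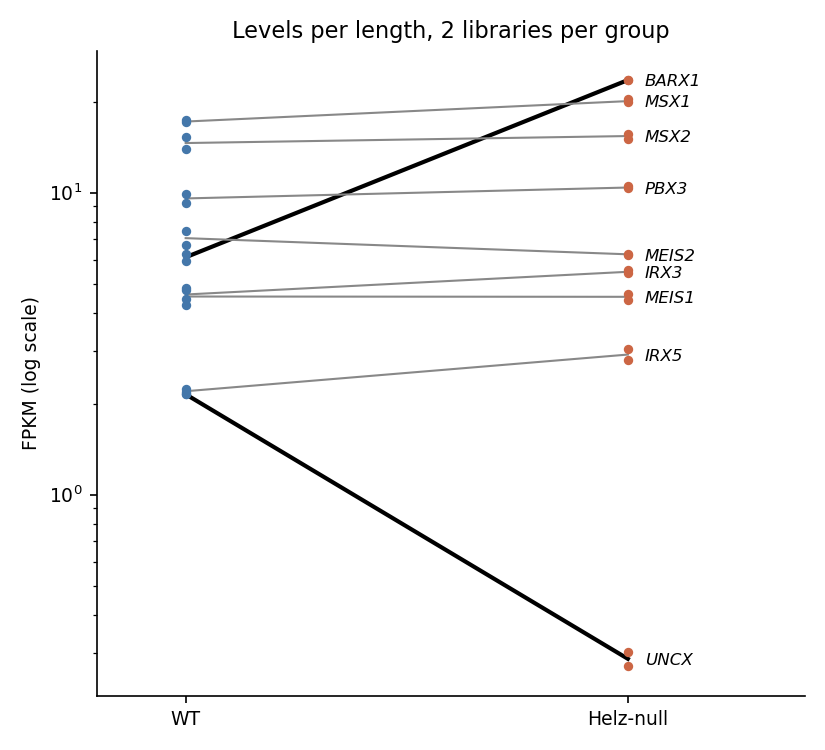
FPKM (log scale) of the 9 homeobox genes in WT and Helz-null cells; points are libraries, 2 per group, and lines join the group means. BARX1 goes from 6.11 to 23.6 FPKM and becomes the highest of the 9, and UNCX goes from 2.15 to 0.286 FPKM, while the lines of the other 7 genes do not cross each other.

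Further homeobox genes outside the HOX clusters were counted from a list set by symbol and class, made with earlier results of these data known. It holds 169 further symbols and may not be complete. Of these, 20 had 0 counts in every library and 69 were tested. In Helz-null cells 10 were up-regulated and 9 down-regulated, together 27.5% of those tested, beside 29.4% of all tested genes. Their median log2FC was -0.01. With scaling by library totals only, 15 were up-regulated and 8 down-regulated. By class, without the 9 genes, calls were made for 3 of 7 TALE genes, 6 of 25 ANTP genes, 0 of 9 PRD genes, 2 of 5 LIM genes, 3 of 4 POU genes, 0 of 4 genes of the sine oculis class and 5 of 15 genes of other classes. Among the 10 tested PRD genes UNCX was the only one called, and the log2FC of the other 9, including PAX3, PAX6 and PITX1, lay between -0.11 and 0.24. The study selected genes above 2 FPKM for testing. UNCX was above this level only in WT, at 2.15 and 2.16 FPKM against 0.27 and 0.302 FPKM in Helz-null cells. PRD genes of lower level, such as OTX2 below, were not tested, so UNCX is not set apart from those.

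A few homeobox genes outside those tested were called in a wider fit. Of 80 further genes with counts that were not among the 10978, 7 were up-regulated and 3 down-regulated in an edgeR fit over all 20904 genes with at least 1 count. This is 12.5% of them, beside 18.2% of all genes of that fit, 8.49% up-regulated and 9.7% down-regulated. OTX2, a PRD gene of head and eye development, had 92 and 44 counts in the WT libraries (1.47 and 1.07 CPM) and 0 counts in both Helz-null libraries (adjusted p = 2.90e-25). Against a floor of 3 counts per library its mean was at least 22-fold lower in Helz-null cells. LHX8, a LIM gene of forebrain neurons, had 77 and 80 counts in WT and 7 and 30 in Helz-null cells (log2FC -2.25, adjusted p = 9.04e-12). These genes were picked after their values were seen. With OTX2 counted, 2 PRD genes were down-regulated in Helz-null cells.

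**Figure D4:**
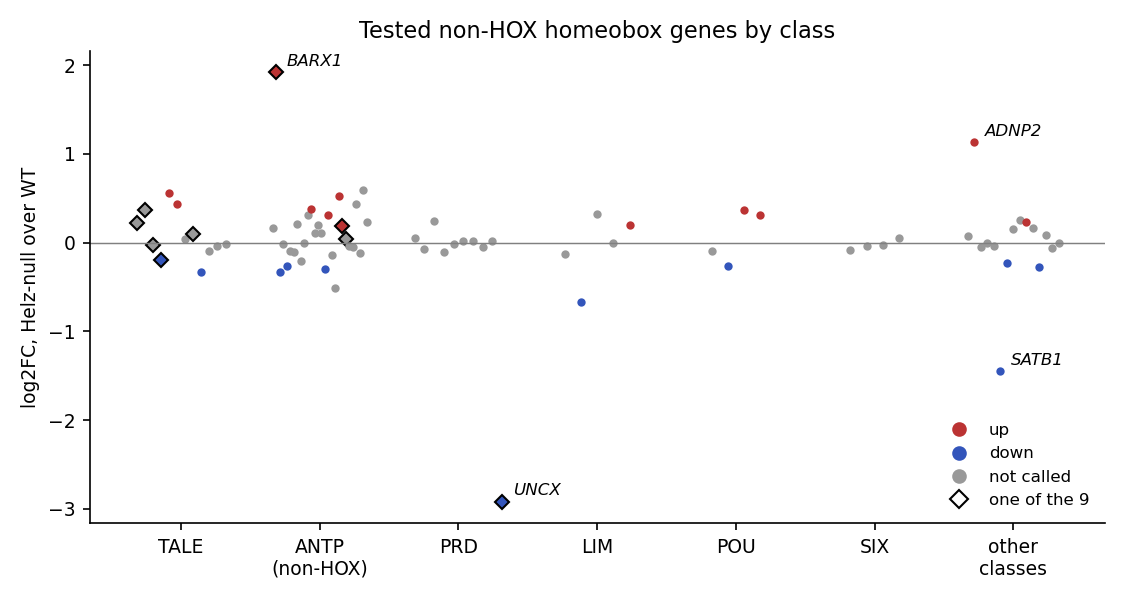
log2FC of Helz-null over WT for the 78 tested non-HOX homeobox genes, grouped by class; each point is 1 gene, coloured by its call at an FDR under 0.005, and diamonds mark the 9 genes. Only BARX1, ADNP2, SATB1 and UNCX lie beyond a log2FC of 1 in size.

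Among the 69 further genes that were tested, ADNP2 and SATB1 had the largest changes. ADNP2, a zinc finger homeobox gene on chromosome 18 (77867146 to 77905406), was up-regulated from 71.5 and 73.2 CPM to 158.7 and 158.0 CPM (log2FC 1.13 with a standard error of 0.035, edgeR adjusted p = 9.79e-27). All 7 tested genes within 1 Mb of its start were up-regulated too, with a median log2FC of 0.67. SATB1, a chromatin organizer on chromosome 3 (18386869 to 18487113), was down-regulated from 18.5 and 17.6 CPM to 6.75 and 6.54 CPM (log2FC -1.45, standard error 0.09, adjusted p = 1.03e-16), and the 1 tested gene within 1 Mb of it was down-regulated as well (log2FC -0.66). ISL2, a LIM gene of motor neurons (log2FC -0.67, adjusted p = 1.16e-07), lies on chromosome 15 among 13 tested genes of which 12 were down-regulated, with a median of -0.39. MNX1, another motor neuron gene (log2FC 0.52, adjusted p = 3.06e-06), had 4 tested neighbours on chromosome 7 of which 3 were up-regulated, with a median of 0.24. Around the other 2 genes named by the same rule the neighbours did not shift in this way. MEIS3 had 30 tested neighbours on chromosome 19, 6 up-regulated and 2 down-regulated, with a median of 0.03. BARX2, itself down-regulated, had 5 on chromosome 11, of which 1 was up-regulated and 0 down-regulated, with a median of -0.00.

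Genes around BARX1 and UNCX showed smaller changes than these 2, in both directions around BARX1. Of 8 tested genes that start within 1 Mb of BARX1, 2 were up-regulated and 2 down-regulated, and their log2FC lay between -0.24 and 0.26 with a median of 0.06. PTPDC1, the nearest of them, had a log2FC of 0.10. Of 11 tested genes around UNCX none was up-regulated and 2 were down-regulated, PRKAR1B (log2FC -0.44) and COX19 (-0.28). Their median was 0.05, and 7 of the 11 had a log2FC above 0. Near IRX5, MMP2, which encodes a matrix metalloproteinase, was up-regulated with a log2FC of 0.96, whereas CRNDE, a non-coding RNA gene that starts 1676 bases away on the other strand, had one of -0.02. Near MSX1, NSG1 was up-regulated with a log2FC of 0.67, and the median of the 7 tested neighbours was 0.02. Of the tested neighbours of MEIS1, MEIS2 and MSX2, which number 1, 1 and 2, none was called. PBX3 had 12, 2 of them up-regulated and 1 down-regulated. Whether reads of IRX5 and CRNDE, or of MEIS1 and its antisense genes, were kept apart by strand is not given in the sources used here, but the 2 antisense genes of MEIS1 in the table had at most 44 counts in a library.

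**Figure D5:**
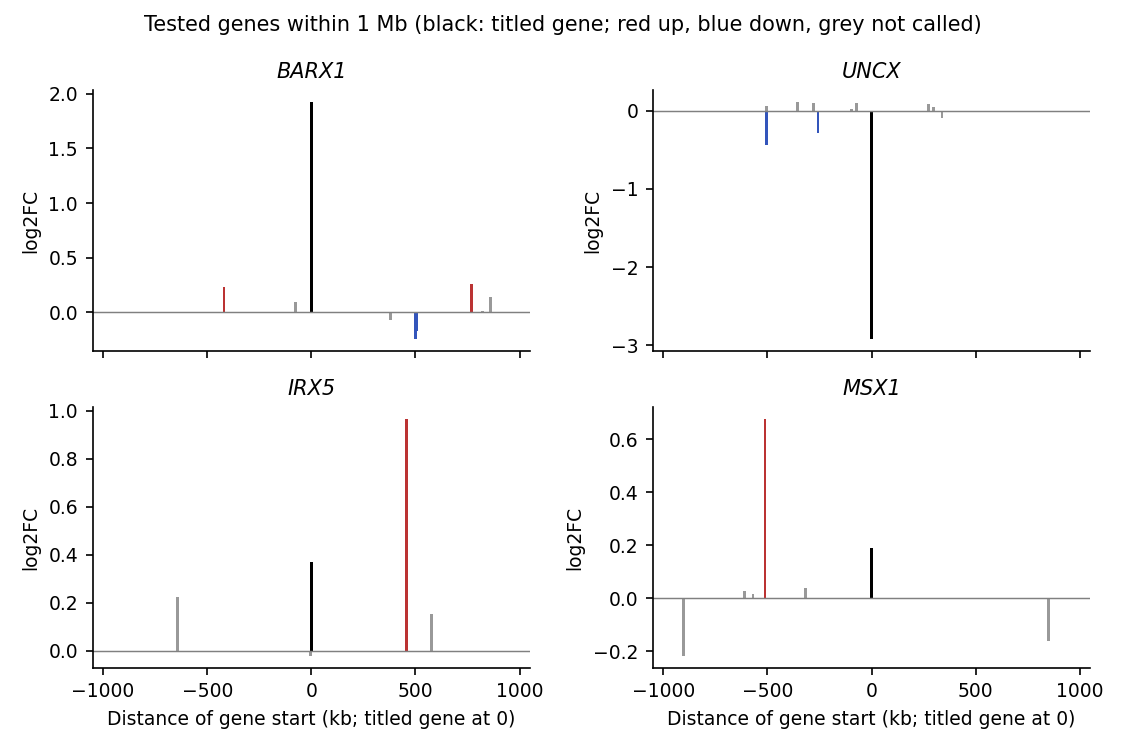
log2FC of Helz-null over WT of tested genes within 1 Mb of BARX1, UNCX, IRX5 and MSX1, against the distance of gene starts in kb, counted in the direction of the titled gene; the vertical scales differ between panels. The titled gene is black, and around BARX1 and UNCX the other bars are between -0.44 and 0.26.

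MEIS and PBX proteins act with HOX proteins, and the HOX genes were therefore counted as well. Of 34 tested HOX genes 1 was up-regulated, HOXA13 (log2FC 0.23, adjusted p = 0.0025), and 15 were down-regulated, with a median log2FC of -0.30. Together 47.1% of them were called, beside 29.4% of all tested genes, 13.9% up-regulated and 15.5% down-regulated. The down-regulated genes were in the HOXA, HOXB and HOXD clusters. None of the tested HOXC genes was called, and their log2FC lay between -0.18 and 0.09. HOXB5 fell most, from 22.3 ± 0.258 CPM to 11.2 ± 0.434 CPM (SD, n = 2 for both), a 1.99-fold decrease (adjusted p = 5.58e-14 in the edgeR fit).

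Genes with the profile most like that of BARX1 and UNCX were sought by the distance between log2 CPM values over the 4 libraries, each gene centred on its mean. Nearest to BARX1 were TMEM35 (distance 0.05, log2FC 1.90), SPARC (distance 0.31, log2FC 1.62) and HLA-DMA (distance 0.33, log2FC 1.67). Nearest to UNCX were MYD88 (distance 0.21, log2FC -2.69), BST2 (distance 0.50, log2FC -2.35) and OSTN (distance 0.69, log2FC -2.41). Over 2 groups of 2 libraries this measure mainly finds genes with a like fold change.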

How the data were processed

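RNA-Seq libraries of HEK293T WT and Helz-null cells (2 each) were analysed from the deposited read counts. These counts are not normalized. To obtain them the authors took out reads of ribosomal RNA (Bowtie2), aligned the read pairs to hg19 (TopHat2) and counted per gene (QuasR). Versions, gene annotation and the use of strand are not given in the sources used here. A deposited table of the authors' own edgeR comparison holds a log2 fold change, a log2 CPM, a p-value and an FDR for each of 10978 genes selected by FPKM. Only its gene symbols were used. The gene width deposited with the counts served for FPKM.

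The counts of these 10978 genes were tested with edgeR 4.0.16 under R 4.3.3 (limma 3.58.1, TMM scaling, glmQLFit and glmQLFTest, genotype as the only term). P-values were adjusted over all of them after Benjamini and Hochberg, and genes were called below an FDR of 0.005. The standard error is the size of the log2FC over the root of F, intervals are at 95%, and log2 CPM used a prior count of 2. The biological coefficient of variation was 2.6%. The floor of 3 counts corresponds to 0.043 to 0.0732 CPM and covers counting error only. Replicates of a group differed by more than counting noise (chi-square per degree of freedom 4.15 in WT and 3.01 in Helz-null). The study calls them biological replicates and gives no more on their origin in the sources used here, so p-values measure the spread between these libraries.

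The 9 genes and all lists were chosen with earlier results of these data known. Named genes were HELZ, the 9 genes, their relatives with counts, the 3 up- and 3 down-regulated further homeobox genes with the largest absolute log2FC, the 3 tested genes nearest to BARX1 and to UNCX in profile, and 2 to 4 examples from the HOX and BMP lists. Genes near a described gene, and homeobox genes outside the tested ones, were named after their values were seen. Some genes that these rules select are not reported here. Positions and coding sequences came from GENCODE on GRCh37, where 10379 of the tested genes were found under their symbol and 514 under an older one, and 85 were left without a match. The fit was tested on simulated data before use. Alternatives were DESeq2 1.42.0, other scalings and gene filters, a replicate block and single libraries left out. Python 3.11.15, pandas 2.3.3 and matplotlib 3.10.9 were used for the remaining steps.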

Additional observations from a re-analysis of the deposited data

How the results depend on the processing

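BARX1 stayed up-regulated and UNCX down-regulated under each of the 10 alternatives, with log2FC values from 1.88 to 1.96 and from -3.02 to -2.86. MSX1 and MEIS2 passed the threshold narrowly. Of the 9 genes, 1 in place of 2 was up-regulated with DESeq2 (1) and with filterByExpr (1), and 1 to 1 with single libraries left out, since MSX1 was lost. Down-regulated were 1 with DESeq2, 1 with RLE size factors, 1 with filterByExpr, 1 with library totals only and 1 to 2 with single libraries left out, since MEIS2 was lost. The cause was not tested. Among the further homeobox genes, 17 in place of 10 were up-regulated and 13 in place of 9 down-regulated when all genes with at least 1 count were tested, of which 7 and 3 were not among the genes tested otherwise. Among relatives that were not called, the sign of the log2FC turned for TGIF2 with library totals only (0.01), and with single libraries left out for PBX2 (-0.00 to 0.08), TGIF1 (-0.10 to 0.01) and TGIF2 (-0.05 to 0.00). Of the 9 genes, MEIS1 (-0.13 to 0.05) and MSX2 (-0.03 to 0.12), neither of them called, also turned sign with single libraries left out.

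Same-numbered replicates did not deviate together (r = 0.034 over 10978 genes), so the numbers were not taken to pair the libraries. With a replicate block, 1677 genes were up-regulated and 1841 down-regulated, against 1524 and 1701 without it, 2 and 2 of the 9 genes were called in each direction, and the further homeobox genes gave 12 and 10 in place of 10 and 9. Depth limits UNCX most, with 18 and 34 counts in Helz-null cells. With 2 libraries per group, no search for a deviating library was possible.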
